A study of Mus musculus with 7 samples.

Results

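The cyclin-dependent kinase (CDK) inhibitors Cdkn1a, Cdkn1b, Cdkn1c, Cdkn2a, Cdkn2b and Cdkn2c, the p53 regulator Mdm2 and the stress genes Gadd45a, Gadd45b and Gadd45g were followed across cell types and ages of the mouse mammary gland. They were taken as the rows of these symbols in the raw count matrix, and 10 of 10 were found among 27998 genes. The glands came from 3 young (3 to 4 months) and 4 aged (13 to 14 months) virgin females of mixed FVB, 129, C57BL/6J background, analysed at diestrus, and the groups differed by no treatment or allele that the labels name. Cells of the abdominal glands were dissociated with enzymes, captured on the 10× Chromium without sorting and counted as unique molecular identifiers (UMIs), 1 library per mouse. The matrix held 13684 cells of 13 cell types named by the authors, with 1264 to 2865 cells and 6652599 to 16999625 UMIs per mouse. The median cell had 4758.5 to 5253 UMIs in young and 5582 to 7109.5 in aged mice.

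Several features of the data bear on every comparison. The barcode that names a cell has 2 parts of 8 bases in the young libraries and 1 part of 16 in the aged ones, and the effect of age therefore cannot be told apart from that of how the libraries were handled. After the parts were joined, 101 barcodes occurred in more than 1 library. Each of 12 cell type marker lists had its highest summed level in the type it names (12 of 12). In that type 0 of its markers were at 0. The paper identified its cell types by canonical markers, which these lists follow, so this result does not test the labels independently. Some margins were narrow. The hormone-sensing (HS) luminal list summed to 2202 CPM (defined with the levels below) in its own type and 2096 in HS-AV cells. The T and B cell list summed to 1472 CPM in its own type and 1413 in NK cells. The mouse was the replicate, and the letters A to D name different animals in the 2 age groups.

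These genes act at the brakes of the cell cycle. Cdkn1a (p21), Cdkn1b (p27) and Cdkn1c (p57) bind cyclin and CDK complexes broadly. The INK4 family, with p16Ink4a (from Cdkn2a), Cdkn2b (p15) and Cdkn2c (p18), holds back the CDKs that phosphorylate the retinoblastoma protein. Cdkn2a also encodes p19Arf, which is not an INK4 protein. The transcription factor p53 switches on Cdkn1a and Gadd45a after DNA damage, and it also switches on Mdm2, which in turn marks p53 for degradation. Gadd45b and Gadd45g are stress-inducible relatives of Gadd45a that bind upstream kinases of the p38 and JNK pathways. High p16Ink4a and p21 are widely used as marks of senescence, a lasting exit from the cell cycle.

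On mouse build GRCm38 (mm10, GENCODE vM21) Cdkn2a (chr4:89274471-89294653, minus strand) and Cdkn2b (chr4:89306299-89311039, minus strand) are neighbours on chromosome 4, where Cdkn2c also lies (chr4:109660876-109667189, minus strand). Cdkn1a is at chr17:29090976-29100727 (plus strand), Cdkn1b at chr6:134920401-134925513 (plus), Cdkn1c at chr7:143458339-143461050 (minus), Mdm2 at chr10:117688875-117710758 (minus), Gadd45a at chr6:67035096-67037457 (minus), Gadd45b at chr10:80930073-80932204 (plus) and Gadd45g at chr13:51846678-51848468 (plus). Cdkn2a has 2 annotated transcripts that begin at different promoters and end in shared exons, so these 3′ counts do not separate p16Ink4a from p19Arf. Annotated antisense transcripts overlap Cdkn1a, Cdkn1c and Gadd45a, and whether the counting used strand is not given in the sources used here.

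Promoter windows from 250 bases before to 50 bases after an annotated start were available from RefSeq for 9 of the 10 genes (12 windows, GRCm38.p6). Cdkn1a is shown because its upstream start holds a pair of 10-base p53 motifs with the spacing of a full p53 site (0 to 13 bases between them), a match that 0.0731% of all 32817 windows hold and 1 of the 12 member windows. Gadd45b and Gadd45g are shown because both were called higher in aged vascular endothelial cells and pericytes. Both windows hold a TATA box, a CCAAT box and an E box (searched on both strands), 3 motifs found together in 0.247% of all windows and in 2 of the 12 member windows. These 3 are the motifs, of those searched, that both windows hold, so the share with all 3 is not a test. Other motifs were searched, among them AP-1 and NF-kappaB sites, each found in 0 of the 12 member windows. Singly, the TATA box, spelled TATAAA, occurs in 13.6% of all windows. The CCAAT box occurs in 37.4%, and the E box, spelled CACGTG, in 7.15%. Capitals mark the span of the pair of p53 motifs in Cdkn1a and the 3 motifs in the other windows, which do not overlap each other. Each match is a description of letters only, and no binding site was mapped.
Cdkn1a, chr17:29090729-29091028, plus strand: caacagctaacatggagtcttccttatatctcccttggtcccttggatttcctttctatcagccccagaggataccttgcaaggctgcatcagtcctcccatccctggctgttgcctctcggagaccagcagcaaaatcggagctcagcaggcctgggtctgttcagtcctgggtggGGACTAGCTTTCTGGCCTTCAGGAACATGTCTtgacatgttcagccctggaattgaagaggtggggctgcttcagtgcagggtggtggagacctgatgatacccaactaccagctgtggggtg
Gadd45b, chr10:80929841-80930140, plus strand: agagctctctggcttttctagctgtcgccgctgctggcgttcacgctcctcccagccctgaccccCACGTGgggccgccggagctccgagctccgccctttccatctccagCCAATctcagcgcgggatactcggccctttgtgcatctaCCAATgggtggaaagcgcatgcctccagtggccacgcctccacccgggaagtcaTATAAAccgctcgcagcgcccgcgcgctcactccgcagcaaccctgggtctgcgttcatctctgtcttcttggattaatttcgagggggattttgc
Gadd45g, chr13:51846425-51846724, plus strand: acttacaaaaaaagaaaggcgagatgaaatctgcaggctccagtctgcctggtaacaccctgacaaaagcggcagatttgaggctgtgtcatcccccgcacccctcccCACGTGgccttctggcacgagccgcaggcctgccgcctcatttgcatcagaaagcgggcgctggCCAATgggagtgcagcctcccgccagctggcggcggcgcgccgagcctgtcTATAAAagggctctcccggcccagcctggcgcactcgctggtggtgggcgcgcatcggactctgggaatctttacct

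Levels across cell types were computed as UMIs per 1000000 (CPM) of the summed cells of 1 type in 1 mouse, for mice with at least 3 such cells, and are compared within a gene only. Orders and ranges of levels below are over the 8 types with at least 3 cells in every mouse, both ages together, unless stated. Of the CDK inhibitors, Cdkn1a was the most widely detected, with 33588 UMIs in all and at least 1 UMI in 60.0% of all cells. Its level was 1523 ± 286 CPM (SD, n = 7 mice, as for all levels below unless stated) in vascular endothelial cells and 1242 ± 157 in pericytes. Macrophages Mb followed with 764 ± 668 CPM, fibroblasts with 373 ± 54.0, myoepithelial cells with 340.3 ± 101, T and B cells with 245 ± 85.7, AV (alveolar) luminal cells with 195 ± 60.2 and HS (hormone-sensing) luminal cells with 173 ± 92.3. Each neighbouring pair in this order overlapped in range. Vascular endothelial cells exceeded pericytes in 7 of 7 mice, by 0.28 ± 0.20 (SD) in log2(CPM + 1) (exact sign-flip permutation test over mice, two-sided, p = 0.016, the smallest that 7 mice allow, and 0.078 after adjustment over the 10 genes).

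**Figure D1:**
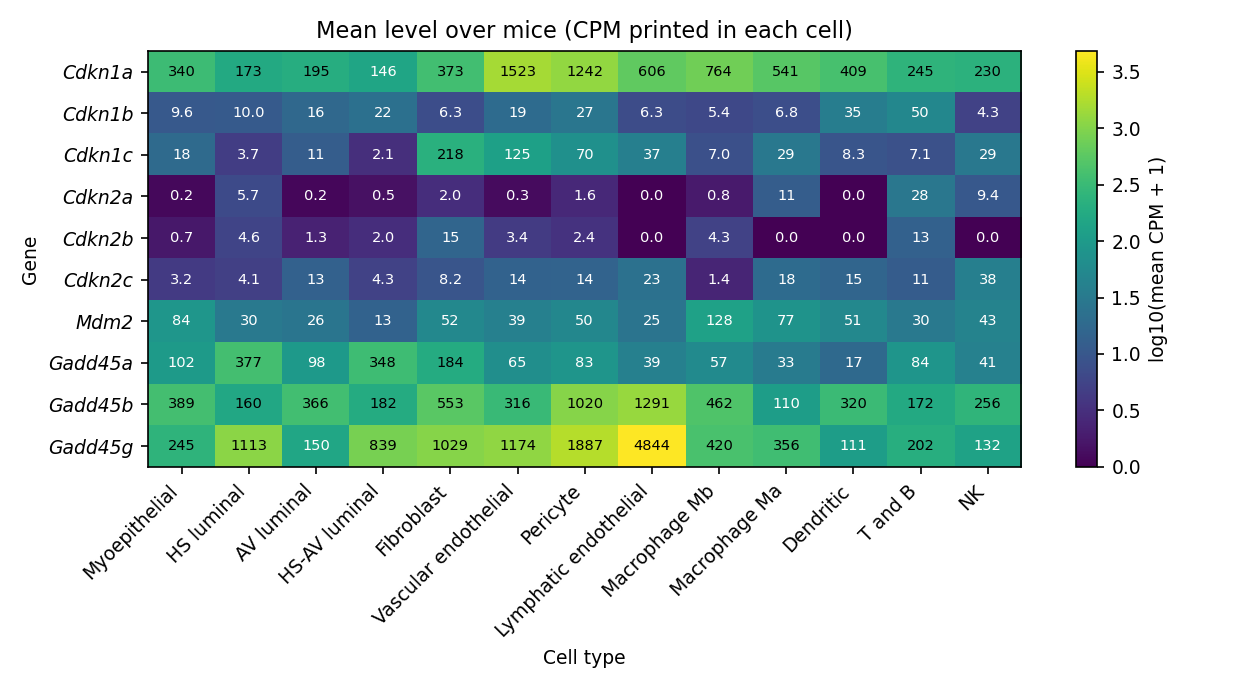
Mean level of each gene (rows) in each cell type (columns) over mice, in CPM, with colour as log10(mean CPM + 1). Cdkn1a stood at 1523 CPM in vascular endothelial cells against 173 in HS cells, while Cdkn2a and Cdkn2b had 28.2 CPM or less in every type.

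Cdkn1c, the imprinted p57 gene, was a stromal transcript. Fibroblasts had 218 ± 113 CPM, vascular endothelial cells 125 ± 98.6 and pericytes 70.1 ± 38.0, and the ranges of the last of these and of myoepithelial cells (18.0 ± 6.63) did not overlap. AV cells had 11.3 ± 4.54 and HS cells 3.66 ± 2.25 CPM. At least 1 Cdkn1c UMI was found in 38.5% of fibroblasts (22.6% with each cell thinned to 2000 UMIs, median depth 4414) and in 2.71% of HS cells (1.12% thinned, median depth 7277), a type with next to no Cdkn1c. Fibroblasts and vascular endothelial cells did not pass the test as neighbours (higher in fibroblasts in 5 of 7 mice, exact sign-flip permutation p = 0.13, adjusted p = 0.25). In young mice alone the means were 220.2 CPM in fibroblasts and 229 in vascular endothelial cells.

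The other CDK inhibitors were sparse. Cdkn1b had 1138 UMIs in all cells, Cdkn2c 942, Cdkn2b 213 and Cdkn2a 93. Cdkn1b ranged from 5.37 ± 10.1 CPM in macrophages Mb to 26.9 ± 8.68 in pericytes and 50.04 ± 36.5 in T and B cells, with overlap between every neighbouring pair. Cdkn2c ranged from 1.38 ± 3.64 CPM in macrophages Mb to 13.5 ± 5.37 in vascular endothelial cells and 14.1 ± 10.3 in pericytes. Cdkn2b was at 14.9 ± 18.8 CPM in fibroblasts and at 4.62 ± 3.23 or less in the other types that had more than 60 cells and were seen in all mice. In the 60 T and B cells it was at 13.0 ± 24.5 CPM, from 3 UMIs. Cdkn2a reached 5.70 ± 5.93 CPM in HS cells (53 of its 93 UMIs) and 28.2 ± 31.2 in T and B cells, where it rested on 10 UMIs in 8 of 60 cells. No Cdkn2a UMI was seen in 226 dendritic cells, which allows up to 1.33% of cells with a UMI (3 counts over the cells, counting error only) and does not limit the share that expresses it. In every other type compared by age Cdkn2a was at 2.00 CPM or less, from 10 UMIs or fewer per type.

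Mdm2 ranged from 26.3 ± 8.03 CPM in AV cells and 30.3 ± 13.7 in HS cells to 83.9 ± 45.6 in myoepithelial cells and 127.9 ± 139 in macrophages Mb, where single mice ranged from 23.1 to 410 CPM. In young mice alone the myoepithelial mean was 39.3 CPM. Gadd45a was highest in HS cells (377 ± 114 CPM), which exceeded fibroblasts (184 ± 66.8) in 7 of 7 mice (exact sign-flip permutation p = 0.016, adjusted p = 0.078). The remaining tested types had 56.9 to 102 CPM. Among the types seen in every mouse Gadd45b was highest in pericytes (1020.1 ± 522 CPM) and fibroblasts (553 ± 458) and lowest in HS cells (160.2 ± 79.1). In young mice alone pericytes (505 CPM) were followed by macrophages Mb (302), myoepithelial cells (264) and fibroblasts (215). Gadd45g was at 1887 ± 954 CPM in pericytes, 1174 ± 247 in vascular endothelial cells, 1113 ± 434 in HS cells and 1029 ± 219 in fibroblasts, and at 149.5 ± 52.2 in AV cells. In young mice alone HS cells had the highest mean of Gadd45g (1444 CPM), above fibroblasts (1153) and pericytes (1034). The 28 lymphatic endothelial cells, seen with at least 3 cells in 5 mice, had 4844 ± 3175 CPM of Gadd45g and 1291 ± 1027 of Gadd45b (SD, n = 5). In the pericyte against next-type comparisons of Gadd45b and Gadd45g, pericytes were higher in 6 of 7 mice each (exact sign-flip permutation p = 0.031, adjusted p = 0.078).

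Differences between 2 cell types of the same mice were tested with edgeR's quasi-likelihood test, with the mouse as a block. Each pair was a contrast in 1 fit that held these 8 types and both ages. Calls needed a p below 0.05 after Benjamini-Hochberg adjustment over all 8519 genes tested and at least a 2-fold difference, and 9 members passed the filter on low counts (all but Cdkn2a). The members called were 2 of 9 for myoepithelial against AV cells (background 30.7% of all genes tested), 7 of 9 for myoepithelial against HS (41.5%), 6 of 9 for HS against AV (24.7%), 4 of 9 for vascular endothelial cells against fibroblasts (31.2%), 1 of 9 for vascular endothelial cells against pericytes (7.91%) and 5 of 9 for fibroblasts against pericytes (27.4%).

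HS and AV cells, the luminal lineages, differed in both directions. Gadd45g (log2 difference 2.75 ± 0.36 SE, adjusted p = 2.6e-09) and Gadd45a (1.84 ± 0.24) were higher in HS cells, as was Cdkn2b (1.97 ± 0.50). The Cdkn2b difference rested on 57 UMIs in HS and 44 in AV cells. With 1 mouse left out in turn, Cdkn2b was tested in 4 of 7 fits and called in each of these. Gadd45b (-1.28 ± 0.24), Cdkn2c (-1.82 ± 0.32) and Cdkn1c (-1.87 ± 0.38) were higher in AV cells. Myoepithelial cells had more Mdm2 than AV cells (1.55 ± 0.25, adjusted p = 5.4e-07) and than HS cells (1.60 ± 0.26), and less Cdkn2c than AV cells (-2.32 ± 0.39). In young mice alone the Mdm2 and Cdkn2c differences of myoepithelial to AV cells were 0.56 and -0.21 and were not called, and the Mdm2 difference to HS cells (0.95), the HS to AV difference of Gadd45b (-0.83) and that of Cdkn2c (-0.81) were not called either.

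In the stroma, Cdkn1a was higher in vascular endothelial cells than in fibroblasts (2.18 ± 0.26, adjusted p = 1.5e-10) and lower in fibroblasts than in pericytes (-1.69 ± 0.26). Cdkn1c (1.73 ± 0.33) and Gadd45a (1.29 ± 0.28) were higher in fibroblasts than in pericytes. Gadd45b was the single member called between vascular endothelial cells and pericytes, at -1.46 ± 0.24 (adjusted p = 5.8e-06), higher in pericytes.

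The age comparison asks which of these genes differ between aged and young mice within 1 cell type. It used edgeR's quasi-likelihood test on the sums of 1 cell type, with TMM scaling and a call at an adjusted p below 0.05 over all genes tested and at least 1.5-fold, and the CPM beside it are scaled by TMM. The 8 types with at least 3 cells in every mouse were tested. Without TMM factors the median gene was lower in aged mice, by a log2 difference of -0.39 in vascular endothelial cells, -0.22 in fibroblasts, -0.20 in AV cells and pericytes and -0.41 in macrophages Mb, and the differences below are relative to that shift. Gadd45b was called higher in aged mice in 6 of these types, Gadd45g in 2, Mdm2, Cdkn1a and Gadd45a in 1 each, and Cdkn1c was called lower in 1.

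By type, the members called were 3 of 7 tested in myoepithelial cells (background 27.6% of all genes tested), 1 of 7 in HS cells (6.26%), 2 of 8 in AV cells (6.16%), 1 of 7 in fibroblasts (3.17%), 3 of 8 in vascular endothelial cells (26.7%), 2 of 6 in pericytes (11.8%), 0 of 3 in macrophages Mb (1.16%) and 0 of 1 in T and B cells (0.656%). In macrophages Mb 2 of the 3 had an unadjusted edgeR p under 0.05, as had 180 of all 859 genes tested there. In T and B cells it was 0 of 1, against 61 of all 457 genes, and DESeq2 called 0 in both. The median log2 difference of the members tested was 0.68, 0.78, 0.33, 0.61, 0.25 and 0.85 in the first 6 types in this order, against -0.05 to 0.02 over all genes. All members not listed as tested had counts under the filter.

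**Figure D2:**
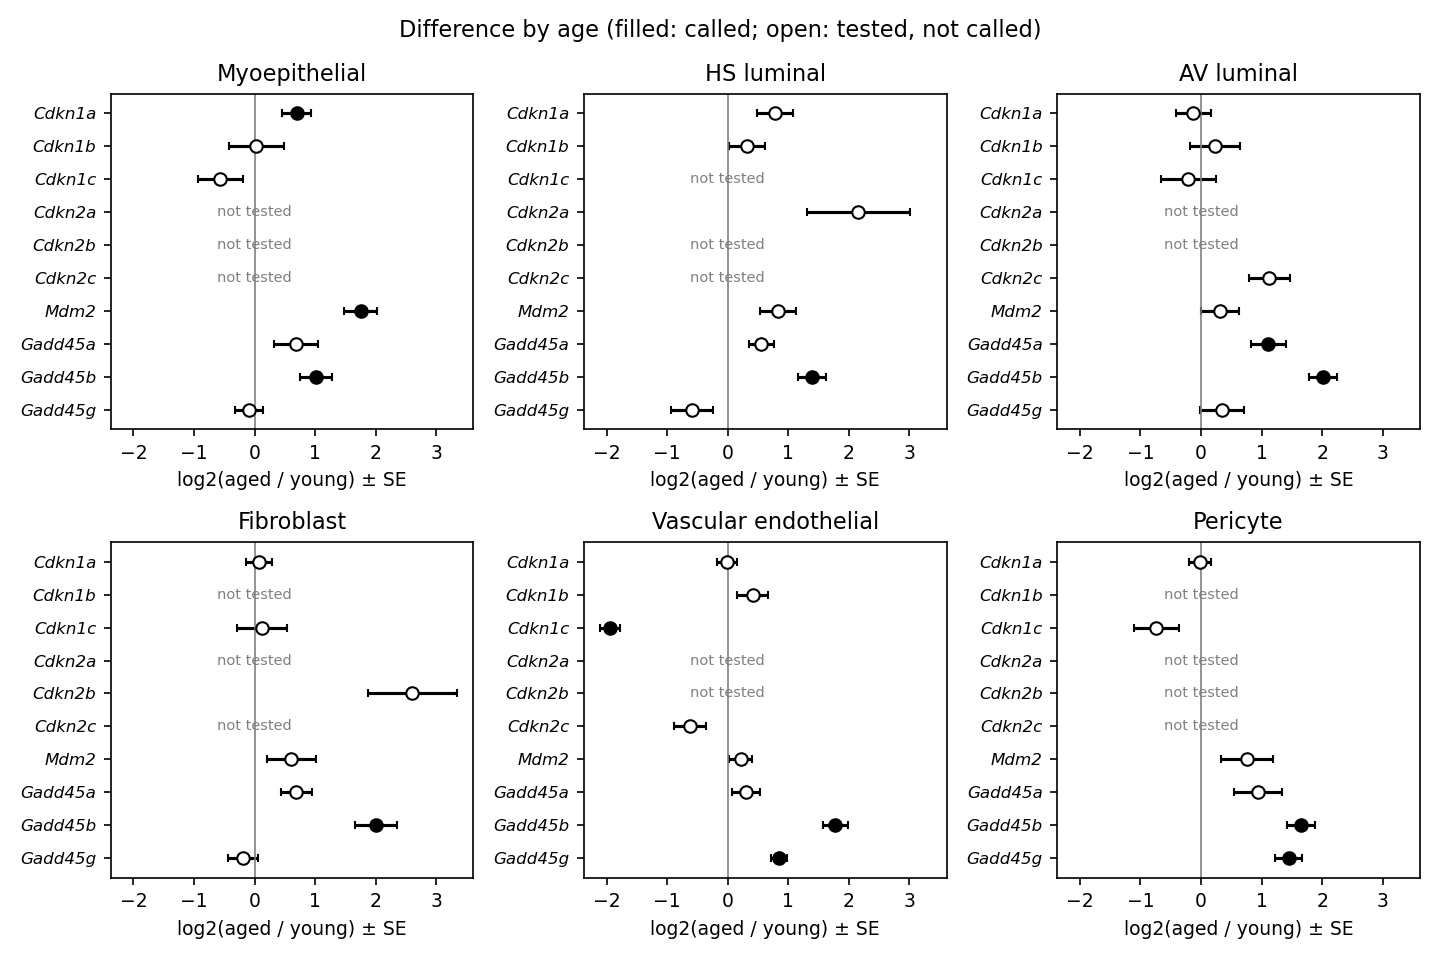
Log2 difference of aged over young mice with its SE for each gene in 6 cell types, filled where called (n = 3 young and 4 aged mice). Gadd45b is filled in 6 panels, between 1.01 and 2.02, and Cdkn1c in vascular endothelial cells lies farthest to the left at -1.94.

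Gadd45b, the stress-inducible kinase activator, was the most widely called member. Of 2206 genes tested in all 6 larger types, 8 (0.363%) were called higher in aged mice in every one, and the other 7 were Erdr1, Mid1, H2-T23, Gm10073, Gm10260, Rpl10-ps3 and Rps18-ps3, several of which are pseudogenes or have near-identical copies. In AV cells it had 98.9, 159 and 167 CPM in young and 455, 574, 606 and 647 in aged mice, so that every aged mouse lay above every young mouse. The log2 difference was 2.02 ± 0.24 SE (edgeR, adjusted p = 0.0015).

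In fibroblasts the young mice had 224, 175 and 249 CPM of Gadd45b and the aged mice 777, 1574, 554 and 535, again without overlap (2.00 ± 0.35, edgeR adjusted p = 0.0066). The aged fibroblast sums rested on 15 to 121 cells per mouse, against 184 to 1034 in young mice. In vascular endothelial cells the values were 103, 128.4 and 202 CPM in young and 507, 414, 489 and 534 in aged mice (1.78 ± 0.21, edgeR adjusted p = 4.5e-05), and in pericytes 427, 493 and 713 against 1923, 1790, 1284 and 1782 (1.65 ± 0.23, edgeR adjusted p = 0.0012). In both types each aged mouse exceeded each young mouse.

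The other epithelial types were called as well. HS cells had 101, 79.1 and 74.8 CPM of Gadd45b in young and 183, 157, 274 and 280.1 in aged mice (1.39 ± 0.23, edgeR adjusted p = 0.0084). Myoepithelial cells had 150.1, 234 and 391 against 493, 423, 591 and 527 CPM (1.01 ± 0.27, edgeR adjusted p = 0.0098), where the highest young mouse, Young C, lay just under the lowest aged mouse, Aged B. Without Young A this difference was 0.67 and was not called. In macrophages Mb, with 3 to 9 cells per aged mouse, the values were 285, 312 and 376 in young and 328, 866, 779 and 1168 CPM in aged mice, which overlapped, and the difference of 1.22 ± 0.42 did not pass (edgeR adjusted p = 0.17).

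**Figure D3:**
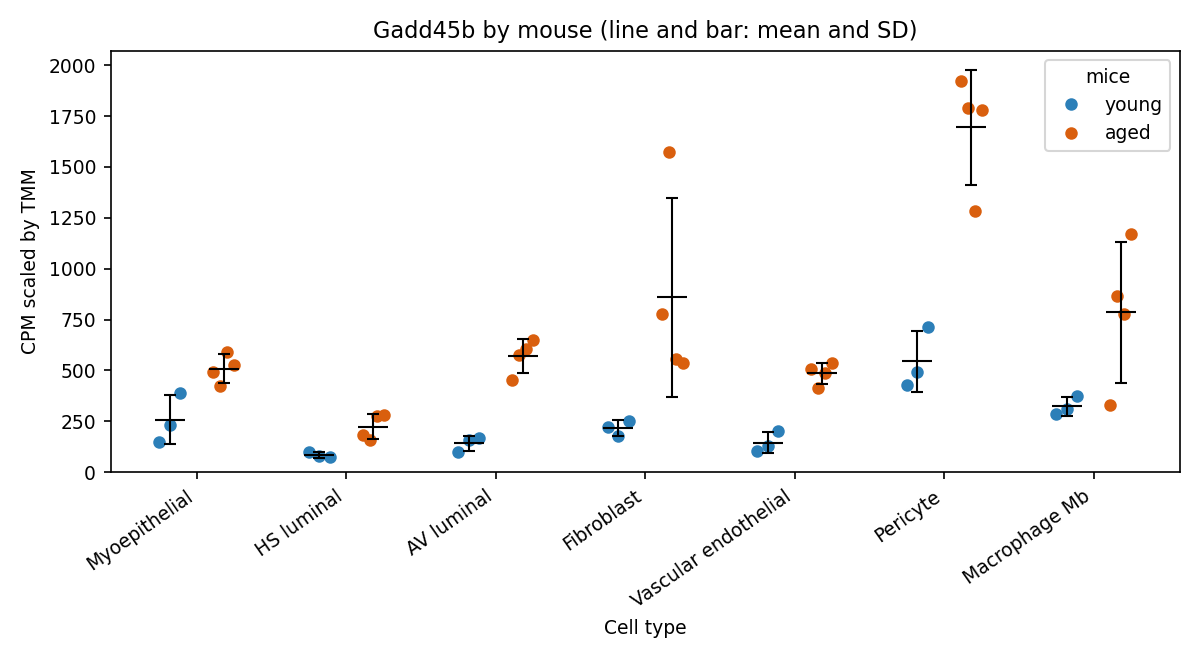
Gadd45b level (CPM scaled by TMM) in each mouse, young in blue and aged in orange, with the mean and SD as a black line and bar. In every type but macrophages Mb the 4 aged mice lie above the 3 young mice, with the widest spread in aged fibroblasts (535 to 1574).

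The share of cells with a Gadd45b UMI was 46.8% ± 10.9 in AV cells of young mice (SD, n = 3) and 82.6% ± 1.68 in those of aged mice (SD, n = 4), with each aged mouse above each young mouse (exact permutation test over the 35 divisions of the mice, two-sided, p = 0.029, the smallest that 3 against 4 allow). With each cell thinned to 2000 UMIs the shares were 24.8% ± 5.95 and 53.3% ± 3.85. In HS cells the unthinned shares were 31.3% ± 7.58 and 68.6% ± 7.32, and in vascular endothelial cells 43.9% ± 9.15 and 75.5% ± 6.19 (p = 0.029 each in the same exact test). Thinned, they were 13.4% ± 2.39 and 30.0% ± 7.75 in HS cells, where the exact permutation p was 0.057, and 22.8% ± 4.19 and 47.6% ± 5.14 in vascular endothelial cells (p = 0.029). In myoepithelial cells they were 67.4% ± 13.9 and 76.5% ± 5.45, with overlap (exact permutation p = 0.29). Over the 47 gene and cell type pairs tested, 9 reached this smallest p, and the lowest adjusted p was 0.15, so none passed after adjustment. No cell type lacked Gadd45b, so free RNA in the droplets could not be set apart from expression in these shares.

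Immediate early and dissociation-linked genes, which tissue digestion can induce, were summed beside Gadd45b over 18 genes, 0 of them absent from the matrix. Their summed level overlapped between ages in myoepithelial cells (11525 to 15280.5 CPM in young, 12710 to 16816 in aged mice), AV cells, HS cells, fibroblasts and vascular endothelial cells. In pericytes it did not overlap, with 26407 to 30156 CPM in young and 32186 to 40356 in aged mice. Of the 18 genes, 3 were called higher and 3 lower in myoepithelial cells, 2 and 0 in HS cells, 0 and 0 in AV cells, 3 and 3 in fibroblasts, 3 and 2 in vascular endothelial cells and 6 and 1 in pericytes. Over all genes tested, 27.6%, 6.26%, 6.16%, 3.17%, 26.7% and 11.8% were called in these types in this order. Examples are Ier3, higher in aged myoepithelial cells (541 ± 125 to 1764 ± 210.1 CPM) and vascular endothelial cells (877 ± 75.3 to 3498 ± 401), and Fosb, lower in aged vascular endothelial cells (680.2 ± 148 to 236 ± 49.6). The part of these genes in the Gadd45b difference was not tested. With each cell thinned to 2000 UMIs, Gadd45b was still called higher in these 6 types. The log2 differences then ran from 0.97 in myoepithelial to 2.06 in AV cells. Beyond this thinning, the part of the deeper aged libraries was not tested.

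Gadd45g and Gadd45a followed narrower patterns. Gadd45g had 868, 794 and 850.4 CPM in young and 1367, 1675, 1540 and 1434 in aged vascular endothelial cells (0.84 ± 0.13, edgeR adjusted p = 3.4e-04). Every aged mouse exceeded every young mouse, although without TMM factors the difference was 0.49, under the 1.5-fold minimum. In pericytes Gadd45g had 1087, 1169 and 1093 CPM against 2785, 4189, 2108 and 3104 (1.45 ± 0.22, edgeR adjusted p = 0.0015), also without overlap. The share of vascular endothelial cells with a Gadd45g UMI was 88.8% ± 2.04 in young and 89.7% ± 1.54 in aged mice (exact permutation p = 0.54). In myoepithelial cells, where the level was not called (-0.09 ± 0.24), that share was 63.3% ± 14.96 in young and 42.9% ± 3.80 in aged mice, without overlap (exact permutation p = 0.029, adjusted p = 0.15 over the 47 pairs).

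In HS cells, where Gadd45g was abundant, young mice had 1207, 1690 and 1294 CPM and aged mice 422, 1510.3, 687 and 1098, with overlap (-0.59 ± 0.35, edgeR adjusted p = 0.34). Gadd45a had 46.4, 59.5 and 76.9 CPM in young and 138, 95.1, 193 and 102 in aged AV cells (1.11 ± 0.29, edgeR adjusted p = 0.049), apart in range. That call stood at the threshold and was lost in 11 of 17 alternative settings, with the difference between 0.83 and 1.35. In HS cells, which had the most Gadd45a, the values were 271, 252 and 374 CPM in young and 566, 407, 413 and 373 in aged mice (0.56 ± 0.20, edgeR adjusted p = 0.12).

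Cdkn1c was the single member called lower in aged mice, and in 1 cell type. Vascular endothelial cells had 213, 207 and 185 CPM in young and 38.6, 56.5, 61.5 and 52.8 in aged mice, a mean of 202 ± 14.7 (SD, n = 3) against 52.3 ± 9.84 (SD, n = 4). The log2 difference was -1.94 ± 0.16 (edgeR adjusted p = 3.6e-06). All aged mice lay below all young mice, and the call held in 17 of 17 alternative settings (-2.30 to -1.75). The share of vascular endothelial cells with a Cdkn1c UMI was 42.2% ± 0.718 in young and 17.1% ± 2.44 in aged mice, and 27.2% ± 0.957 and 6.56% ± 2.45 after thinning (exact permutation p = 0.029 each, adjusted p = 0.15 and 0.21 over the 47 pairs).

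Pericytes had 73.0, 86.8 and 156 CPM of Cdkn1c in young and 89.2, 57.1, 48.9 and 41.9 in aged mice, with overlap (-0.74 ± 0.37, edgeR adjusted p = 0.21). Their share of cells with a Cdkn1c UMI was 30.3% ± 11.6 in young and 16.7% ± 3.40 in aged mice, without overlap. After thinning it was 18.1% ± 9.03 and 8.19% ± 2.37 (exact permutation p = 0.029 each, adjusted p = 0.15 and 0.21). The age difference of vascular endothelial cells less that of pericytes was -1.25 ± 0.60 and was not called (edgeR adjusted p = 0.27). Fibroblasts had 402, 129 and 117 CPM in young and 226, 339, 180.3 and 182 in aged mice (0.13 ± 0.41, edgeR adjusted p = 0.92). Young A stood apart from the other young mice there. In AV and myoepithelial cells Cdkn1c was at 26.6 CPM or less in every mouse and was not called.

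Mdm2 was called in myoepithelial cells. It had 28.5, 32.1 and 54.9 CPM in young and 114, 122, 154 and 104 in aged mice (1.75 ± 0.27, edgeR adjusted p = 2.3e-04), without overlap, and this call held in 17 of 17 alternative settings. The share of myoepithelial cells with a Mdm2 UMI was 16.8% ± 6.32 in young and 31.6% ± 2.49 in aged mice, and 3.90% ± 3.72 and 17.2% ± 2.43 after thinning. In HS cells Mdm2 was at 16.7, 23.7 and 21.7 CPM in young and 45.5, 19.0, 49.8 and 37.2 in aged mice (0.83 ± 0.30, edgeR adjusted p = 0.12), where Aged B lay among the young mice. The other types overlapped and were not called.

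Cdkn1a, the best known p53 target, was called in myoepithelial cells, with 177, 289 and 320 CPM in young and 465, 296, 458 and 437 in aged mice (0.69 ± 0.24, edgeR adjusted p = 0.038). Aged B lay between the young mice, and the call was lost in 8 of 17 alternative settings (difference 0.42 to 0.92). In vascular endothelial cells and pericytes, which had the most Cdkn1a, the difference was -0.01 ± 0.16 and -0.01 ± 0.18, and young and aged means were 1541 ± 163 and 1529 ± 285 CPM in the former and 1433 ± 153 and 1422 ± 188 in the latter. HS cells had 98.1, 134 and 135 CPM in young and 345, 128.03, 210.1 and 158 in aged mice (0.78 ± 0.30, edgeR adjusted p = 0.14).

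**Figure D4:**
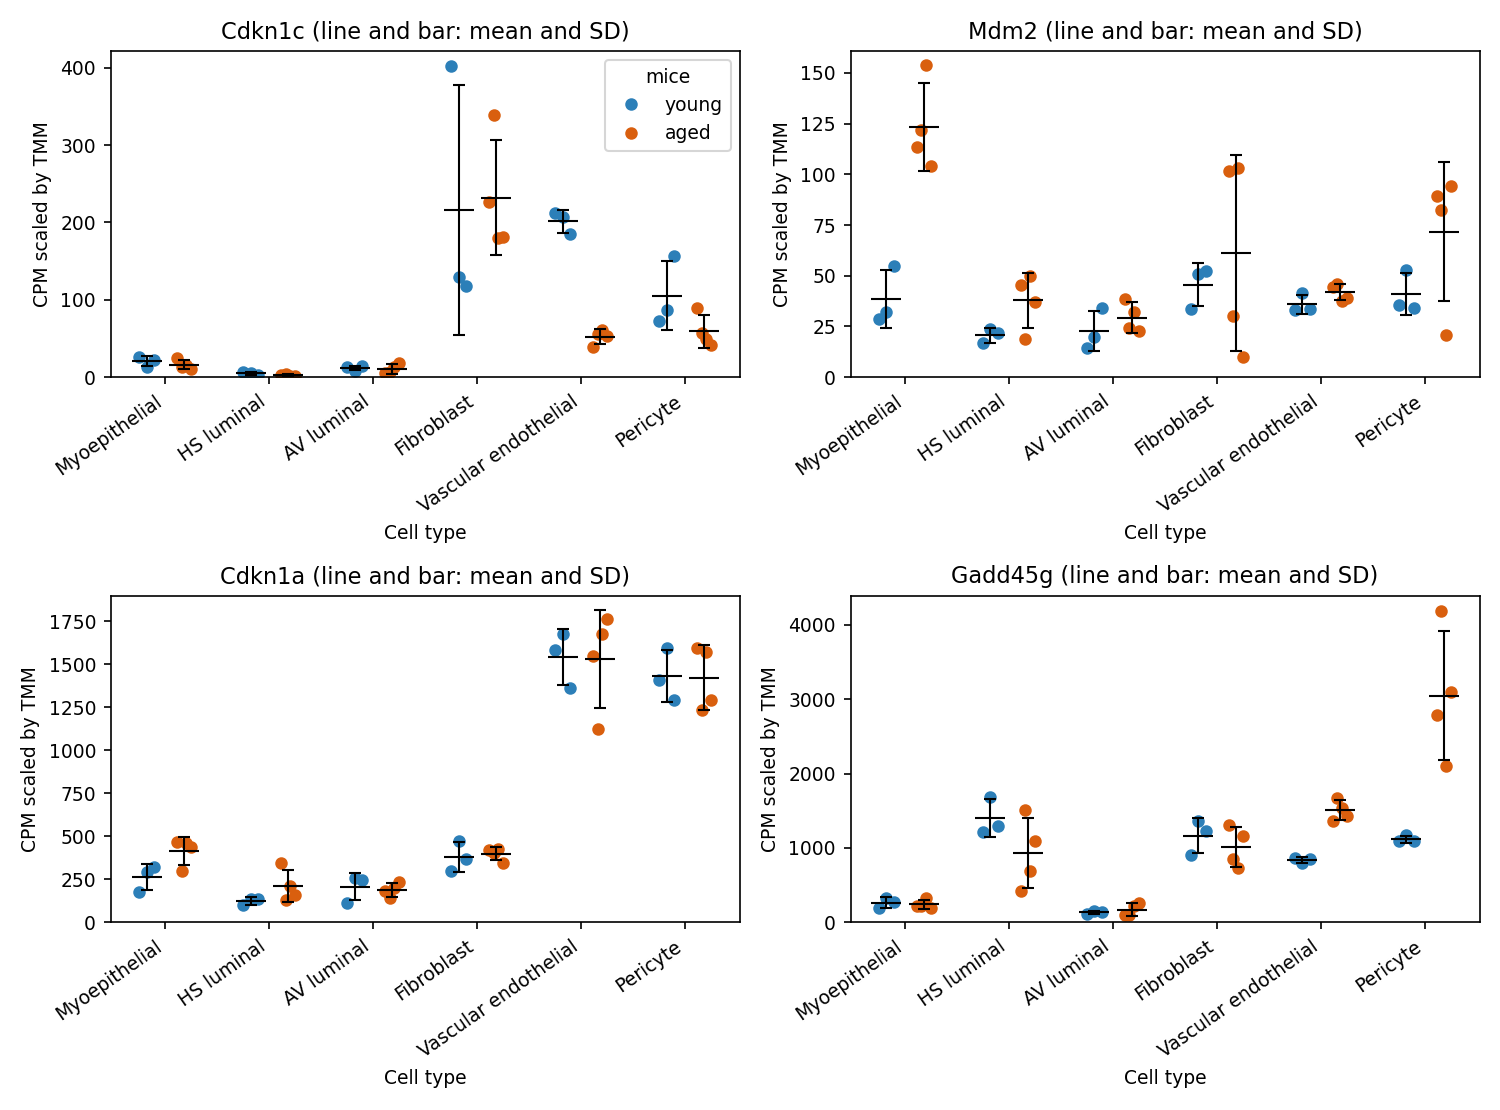
Level of Cdkn1c, Mdm2, Cdkn1a and Gadd45g (CPM scaled by TMM) in each mouse of 6 cell types, young in blue and aged in orange, with mean and SD in black. Cdkn1c in vascular endothelial cells (185 to 213 against 38.6 to 61.5) and Mdm2 in myoepithelial cells (28.5 to 54.9 against 104 to 154) separate the ages, while Cdkn1a in vascular endothelial cells does not.

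Cdkn2a, which encodes the senescence mark p16Ink4a, Cdkn2b and Cdkn2c gave few counts, and edgeR called 0 of them by age. Cdkn2a in HS cells had 3.00, 0.527 and 1.45 CPM in young and 14.4, 0, 11.1 and 9.29 in aged mice, from 19 and 34 UMIs. Young and aged mice overlapped through Aged B, which had no Cdkn2a UMI, and the difference of 2.16 ± 0.85 did not pass (edgeR adjusted p = 0.15). Without Aged B (2.75) and with no filter on low counts (2.10) it was called, and in the other 11 of 13 alternative settings it was not. After thinning, and without Aged A, Aged C or Aged D, Cdkn2a fell under the filter and was not tested. The share of HS cells with a Cdkn2a UMI was 1.66%, 0.351% and 0.810% in young and 8.02%, 0%, 7.53% and 6.52% in aged mice (exact permutation p = 0.14), against 0.104% of all AV cells, which had a median depth of 6632 UMIs. In T and B cells Cdkn2a was not tested, with 1 UMI in young and 9 in aged mice. In myoepithelial and vascular endothelial cells, 0 Cdkn2a UMIs were counted in young and 1 and 3 in aged mice.

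Cdkn2b in fibroblasts had 6.41, 0 and 3.57 CPM in young and 19.2, 54.5, 25.8 and 0 in aged mice, from 35 and 21 UMIs, with overlap (2.60 ± 0.74, edgeR adjusted p = 0.073). DESeq2 called it (2.79), as did edgeR with no filter on low counts (2.41), and the other 7 of 9 alternative settings did not. In G1 cells, after thinning and with any mouse other than Aged D left out, Cdkn2b fell under the filter in fibroblasts and was not tested. In vascular endothelial cells, where it was under the filter, its values were 1.24, 0.973 and 0 in young and 2.41, 7.43, 6.94 and 6.79 CPM in aged mice, from 5 and 28 UMIs, and did not overlap. Cdkn2c had 8.07, 11.6 and 5.66 CPM in young and 15.8, 21.3, 10.9 and 18.5 in aged AV cells (1.13 ± 0.33, edgeR adjusted p = 0.072), and 19.4, 16.1 and 13.7 against 12.1, 8.17, 10.9 and 12.8 in vascular endothelial cells (-0.62 ± 0.27, edgeR adjusted p = 0.099). Cdkn1b (p27) was tested in 4 types, with differences between 0.03 ± 0.46 in myoepithelial and 0.41 ± 0.26 in vascular endothelial cells, and called in 0.

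Whether an age difference itself differed between 2 cell types was tested as an interaction, called at an adjusted p below 0.05. Each pair was a contrast in 1 fit over the 8 types tested by age, with the mouse as a block. Members called were 2 of 9 for myoepithelial against AV cells (background 11.4% of all genes tested), 0 of 9 for myoepithelial against HS (8.11%), 0 of 9 for HS against AV (2.69%), 1 of 9 for vascular endothelial cells against fibroblasts (3.72%), 0 of 9 for vascular endothelial cells against pericytes (4.31%) and 0 of 9 for fibroblasts against pericytes (0.317%). The difference of Mdm2 with age was larger in myoepithelial than in AV cells by 1.48 ± 0.45 (edgeR adjusted p = 0.023), a call that was lost with DESeq2, in G1 cells alone and without Young A, Young C or Aged B. That of Cdkn2c differed by -3.03 ± 0.75 (edgeR adjusted p = 0.0056), from 13 UMIs in young and 11 in aged myoepithelial cells, and without Young A it was -1.17 and was not called. For Cdkn1c the age difference of vascular endothelial cells less that of fibroblasts was -2.22 ± 0.42 (edgeR adjusted p = 3.8e-04), and in G1 cells alone it was -1.44 and was not called. For Gadd45b, called in each of these types, the age differences of 2 types differed by -0.89 ± 0.40 (myoepithelial less AV cells, 95% interval -1.67 to -0.12, edgeR adjusted p = 0.14) to 0.31 ± 0.39 (fibroblasts less pericytes, -0.46 to 1.08), and 0 of 6 passed.

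Among minor populations, the HS-AV cells of the 3 young mice were set against their HS and their AV cells, with the mouse as a block (called at 5/4-fold or more against both, in 1 direction). Of 6 members tested 0 were called, against 1.67% of all genes. Against AV cells Gadd45g (2.58 ± 0.26, edgeR adjusted p = 4.1e-10) and Gadd45a (1.39 ± 0.24, edgeR adjusted p = 2.3e-05) were higher in HS-AV cells, while against HS cells they differed by -0.56 ± 0.23 and -0.61 ± 0.23 (edgeR adjusted p = 0.16 and 0.12). Cdkn1b was higher in HS-AV than in HS cells (1.84 ± 0.37, edgeR adjusted p = 7.3e-04) and at 0.83 ± 0.40 against AV cells (edgeR adjusted p = 0.14). Between the macrophage types of young mice, 1 of 4 members was called (background 27% of all genes at 2-fold), with Gadd45b lower in macrophages Ma than Mb by -1.50 ± 0.29 (edgeR adjusted p = 0.0040). Without Young A it was -1.51 and was not called.

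Cells that the authors placed in G2M were compared with G1 cells of the same type and mouse, for mice with at least 10 cells of each, with the mouse as a block and a 1.5-fold minimum. Members called were 0 of 5 in myoepithelial cells (background 0.306%), 0 of 5 in HS cells (0.275%), 0 of 6 in AV cells (0.282%) and 0 of 6 in vascular endothelial cells (1.59%). Cdkn1a in AV cells was at 241 ± 67.9 CPM in G2M and 184 ± 38.6 in G1 cells (SD, n = 7), higher in 6 of 7 mice, at 0.41 ± 0.09 (edgeR adjusted p = 0.022), which is under the fold minimum. With cycling cells defined by a UMI of Mki67 or Top2a, Cdkn1a in AV cells was at 0.03 ± 0.15 (edgeR adjusted p = 0.98). Gadd45g in HS cells was then at -0.56 ± 0.12 in 3 mice (edgeR adjusted p = 0.021), under the fold minimum.

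Other genes of these pathways were taken from lists. Of 24 other p53 targets, 16 were tested in myoepithelial cells (3 called higher in aged mice, 3 lower), 21 in HS cells (4 and 0), 22 in AV cells (1 and 0), 12 in fibroblasts (1 and 0), 19 in vascular endothelial cells (8 and 2) and 8 in pericytes (2 and 1). The shares called among all genes, in both directions, were 27.6%, 6.26%, 6.16%, 3.17%, 26.7% and 11.8% in this order. Their median log2 difference was 0.31, 0.33, 0.31, 0.49, 0.42 and 0.40 in this order, against -0.05 to 0.02 over all genes. Fas, a death receptor, was called in HS (1.40 ± 0.30), AV (1.65 ± 0.31) and fibroblast cells (1.14 ± 0.28). Ddit4, an inhibitor of mTORC1, rose from 98.6 ± 24.4 to 462 ± 100.2 CPM in myoepithelial cells (2.29 ± 0.25), where the growth factor family member Gdf15 rose by 2.34 ± 0.66. Sesn2, a stress-responsive mTORC1 inhibitor, was called in HS (1.75 ± 0.37) and vascular endothelial cells (2.64 ± 0.36), the latter with Perp (2.67 ± 0.37), and Phlda3 (1.42 ± 0.29) and Plk2 (0.99 ± 0.25) in pericytes. Some of these genes were sparse in young mice. Their young means were 5.57 CPM for Gdf15 in myoepithelial cells and 4.99 for Fas and 2.06 for Sesn2 in HS cells. In vascular endothelial cells they were 4.30 for Sesn2 and 3.40 for Perp.

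The list of p53 and its regulators (9 of 10 in the matrix) had 0 genes called in myoepithelial, HS, AV, fibroblast and pericyte sums, with 5, 6, 8, 3 and 1 tested. In vascular endothelial cells 0 of 7 were called higher and 2 lower, the checkpoint kinase Chek2 (-1.56 ± 0.33) and the deubiquitinase Usp7 (-0.82 ± 0.22). A list of 17 genes held cyclins, CDKs, pocket proteins, E2f1 and the inhibitors Cdkn2d and Cdkn3. Of these 0 were called higher in any type, while 4 of 6 tested were lower in myoepithelial (27.6% of all genes called), 1 of 10 in AV (6.16%) and 4 of 8 in vascular endothelial cells (26.7%). Cyclin D2 (Ccnd2) fell from 163 ± 54.8 to 16.7 ± 7.28 CPM in myoepithelial cells (-3.31 ± 0.32) and by 2.49 on the log2 scale in AV cells, and Rb1, the retinoblastoma gene, fell from 19.6 ± 3.33 to 7.48 ± 0.585 CPM in vascular endothelial cells (-1.38 ± 0.27). Cdkn2d, the INK4 inhibitor p19 and 1 of the 4, fell in myoepithelial cells (-2.04 ± 0.37). The median of the list was -1.09 in myoepithelial, -0.44 in AV and -0.53 in vascular endothelial cells. Of 7 proliferation genes, 1 of 2 tested was called in myoepithelial cells, Mcm6 (-1.07 ± 0.35), and 0 of 7 in AV cells. The median of this list was -1.44 in AV and -0.62 in myoepithelial cells. It was -0.05 in HS and -0.01 in vascular endothelial cells, against -0.05 to 0.02 over all genes. The 1 gene tested was at 0.31 in fibroblasts and -0.19 in pericytes.

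Of 16 other senescence-linked genes, 4 of 13 tested were called higher and 3 lower in myoepithelial cells, 2 and 1 of 12 in HS cells, 0 and 1 of 15 in AV cells, 0 and 0 of 14 in fibroblasts, 5 and 1 of 14 in vascular endothelial cells, 2 and 0 of 10 in pericytes and 1 and 0 of 6 in macrophages Mb. The shares called among all genes were 27.6%, 6.26%, 6.16%, 3.17%, 26.7%, 11.8% and 1.16% in this order. Cxcl1, a neutrophil chemokine, rose from 61.6 ± 44.1 to 3399 ± 1981 CPM in myoepithelial cells (5.74 ± 0.49) and from 161 ± 76.6 to 1175 ± 300 in vascular endothelial cells (2.90 ± 0.29), where Il6 also rose (2.23 ± 0.21). Cxcl2 was called higher in myoepithelial cells (6.32 ± 0.66), HS cells (2.11 ± 0.46), pericytes (2.10 ± 0.31) and macrophages Mb (2.40 ± 0.44), and Ccl2 lower in AV cells (-2.36 ± 0.56).

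The genes whose levels ran most like those of a member were found by Pearson's r of log2(CPM + 1) over 58 sums of a mouse and cell type (12 types, at least 10 cells each) among 7901 genes with at least 20 CPM in some type. These are descriptions over points that share mice and libraries. The closest were Msn (0.88) and Adcy4 (0.87) to Cdkn1a, Slc43a3 (0.86) and Tpst1 (0.85) to Cdkn1c, and Iigp1 (0.83) and Atp8b1 (0.79) to Gadd45g. They were Pgrmc1 (0.72) and Samd14 (0.71) for Gadd45a, C1s2 (0.68) and Hspa8 (0.67) for Gadd45b, Ddx54 (0.68) and Mrpl10 (0.66) for Cdkn1b and Prosc (0.61) and Naa50 (0.57) for Mdm2. For Cdkn2a, with its few counts, they were Gzmk and Ubash3a (0.59 and 0.58).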

How the data were processed

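Mammary glands of 3 young and 4 aged mice were profiled by 10× Chromium v2 single-cell RNA-seq, 1 library per mouse. Per the labels and the study's methods, the authors aligned reads with Cell Ranger 2.0 to mm10, filtered cells and assigned cell types and cell cycle phases, and these assignments were used as given. The deposited counts are unnormalised UMIs of each gene in each cell. The authors predicted doublets with Scrublet and DoubletFinder, and no doublet caller was run here.

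UMIs were summed per mouse and cell type (at least 3 cells in a mouse). Sums were tested with edgeR 4.0.16 (quasi-likelihood F test, TMM, filterByExpr) over all genes, with Benjamini-Hochberg adjustment and the fold minimums given beside each comparison, in R 4.3.3. SEs were derived from the log2 difference and F. Shares were tested by exact permutation over mice (scipy 1.17.1, Python 3.11.15). Thinned values use 2000 UMIs per cell. Depth was 6652599 to 16999625 UMIs per mouse, and limits from a count of 0 cover counting error only. The intervals of interaction terms come from the SE of the fit over mice (normal quantile). DESeq2 1.42.0 and the other alternatives are described in the closing section. The age fit of each cell type and a fit of HS against AV cells were first checked on simulated counts carrying known changes. The other fits were not checked in this way. The members and gene lists were chosen with earlier results of these data known. From the lists, at most the 2 called genes with the largest absolute log2 difference are named per cell type, and for each member of at least 20 CPM in some type the 2 genes with the highest correlation. Gene positions and promoter sequences came from GENCODE vM21 and RefSeq.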

Additional observations from a re-analysis of the deposited data

Results flagged for a closer look

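In aged myoepithelial cells, Cdkn1a was at 296 CPM in Aged B, and the gap to the nearest aged mouse over the range of the 4 aged mice was 0.836. In aged pericytes, Mdm2 was at 20.9 CPM in Aged C, with a gap over range of 0.839. Both exceed Dixon's 95% critical value for 4 samples. These were 2 of 47 groups tested, and chance flags about 1 in 20.

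The difference between aged and young mice was itself different between 2 cell types, by the interaction test of edgeR, for 3 members. The log2 difference of the age effects was -3.03 for Cdkn2c and 1.48 for Mdm2 between myoepithelial and AV cells. For Cdkn1c between vascular endothelial cells and fibroblasts it was -2.22. The Cdkn2c value rests on 13 UMIs in young and 11 in aged myoepithelial cells.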

How the results depend on the processing

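Of 341 alternative values for counts of called members, 306 stayed within 1.5 times the reported count and 35 moved. Of 1076 for single genes, lists and levels, 962 kept their direction and side of the threshold, 81 lost a call, 10 gained one, 2 reversed and 21 moved. By age, the count in AV cells (2) was 1 without TMM factors (a setting chosen after seeing the data), with RLE size factors, in G1 cells, after thinning and without ribosomal and mitochondrial genes. In HS cells (1) it was 4 with no filter, and in fibroblasts (1) 2 with DESeq2 and 2 with no filter. Between cell types, young mice alone gave 0 for myoepithelial against AV cells (2), 3 for HS against AV (6), 2 for vascular endothelial cells against fibroblasts (4) and 2 against pericytes (1). Age effects of myoepithelial against AV cells (2) numbered 1 with DESeq2 and 0 in G1 cells, those of vascular endothelial cells against fibroblasts (1) 2 with no filter and 0 in G1 cells, and those of fibroblasts against pericytes (0) 1 with no filter. The cause was not tested.

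With 1 mouse left out in turn, the count by age ran from 1 to 4 in myoepithelial cells (1 without Young A), 1 to 3 in HS cells (3 without Aged B) and 1 to 2 in AV cells (2 only without Aged B). Between cell types it ran from 2 to 5 for vascular endothelial cells against fibroblasts (2 without Aged A) and 1 to 2 against pericytes (2 without Aged A or Aged B). Age effects ran from 0 to 2 for myoepithelial against AV cells (0 without Young A) and 0 to 1 for HS against AV cells (1 without Aged B), and macrophages Ma against Mb from 0 (without Young A) to 2 (without Young C).

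The share of cells with Gadd45g, aged minus young, reversed in vascular endothelial cells without Young C (-0.058 percentage points, range -0.058 to 1.97 over mice left out) and in pericytes after thinning (9.57 points). The letters A to D did not pair the mice. Correlations of same-letter deviations ran from -0.19 to 0.077 over 18, and 0 exceeded 0.1. With the letter as a replicate block, 0 members were called in fibroblasts (1 without), where Gadd45b was at 2.05, and Cdkn1a in myoepithelial cells (0.67) was not called, and no other reported age call was lost. With 3 against 4 mice the exact permutation test of a share cannot go below p = 0.029, and leaving out a mouse raises that limit.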
